A study of Mus musculus with 18 samples.

Results

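Control libraries set the level against which an siRNA knockdown is read. In the serum-grown libraries of this *Stag1* knockdown series, a pair of such controls was sequenced next to the scrambled siRNA (scr), an untreated culture in replicate set 2 and a luciferase siRNA (Luc) in replicate set 3. The 4 libraries described here are untreated and scr of set 2 and Luc and scr of set 3, chosen by their labels out of 18 samples, 16 of them serum-grown. The first pair differs in the scr siRNA, and in the transfection if the untreated culture, labelled only CTL, received no lipid reagent. The second pair differs in the non-targeting siRNA that was transfected, its sequence and its make. Each condition is 1 library, so neither difference has a replicate check and the differences below carry no test.

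All 4 cultures were male E14 mouse embryonic stem cells (mESCs) grown in serum with LIF on gelatin. The scr siRNA was a synthetic pool from Horizon Discovery and the Luc siRNA was an enzymatically prepared pool (esiRNA) from Sigma, and both were transfected with RNAiMax Lipofectamine at seeding and left for 24 h. Whether the untreated culture received the lipid reagent is not stated and no mock transfection was labelled, so the lipid reagent and the scr siRNA cannot be told apart. The other 8 libraries of sets 2 and 3 carried siRNAs to *Stag1* and served here as a range: SP and 3p (synthetic pools), 5p (1 synthetic duplex) and SATS (an esiRNA), each in 1 library per set. RNA was depleted of rRNA before sequencing.

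A non-targeting siRNA is loaded into the RNA interference machinery in the same way as a targeting one, but has no intended transcript. Cells can nevertheless respond to it through partial matches to their own mRNAs, through receptors of double-stranded RNA that switch on interferon genes, or through the lipid that carries it across the membrane. An esiRNA is a mixture of many short duplexes cut from a long double-stranded RNA, whereas a synthetic pool holds a few defined duplexes.

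Expression is given as the normalised read count, the reads of a gene divided by 1 size factor per library. The 4 libraries held 35301700 (untreated), 35559861 (scr, set 2), 34601520 (Luc) and 40072547 (scr, set 3) reads on genes, and 1 read was worth between 0.397 and 0.438. Of 18659 genes, 11026 had a mean of at least 50 over the 12 libraries of sets 2 and 3, and differences are log2(value + 1) over these genes, which understates the difference of low genes. All 12 ESC markers on the list were above this minimum. *Pou5f1*, the core pluripotency factor, was at 8503 in untreated and 7545 in scr of set 2, and at 8567 in Luc and 8967 in scr of set 3. No ESC marker reached a 1.5-fold difference in either comparison, and *Nanog* was at 4075 and 4069 in set 2 and at 2347 and 2400 in set 3. *Stag1*, which none of the 4 cultures was treated against, was at 1619 in untreated and 1876 in scr of set 2, a fold of 0.863 (95% counting interval 0.826 to 0.902), and at 2200 in Luc and 2113 in scr of set 3, a fold of 1.04. Counting intervals here are exact (Clopper-Pearson) binomial intervals at 95% on the reads of 2 libraries. PCR reads without molecular identifiers are not independent molecules, so they cover counting error only, not the spread between cultures.

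Both control pairs were among the closest pairs of their sets. The SD of the log2 difference over genes was 0.161 for untreated and scr, second lowest of the 15 pairs of set 2. It lay behind SP and 3p (0.155), while the other 13 pairs ran from 0.186 to 0.259. SP and 3p are not unrelated, as both target *Stag1* and their catalogue numbers in the methods overlap. In set 3 Luc and scr were the closest pair, with an SD of 0.131 against 0.161 to 0.308 in the other 14. Counting error alone gives a root mean square of 0.0846 and 0.0855 in these pairs, below the spread of either. The scr libraries of sets 2 and 3 differed from each other by an SD of 0.419, with 11.7% of genes past 1.5-fold. Differences between sets were therefore larger than those between controls within a set, and all comparisons below were made within a set.

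**Figure D1:**
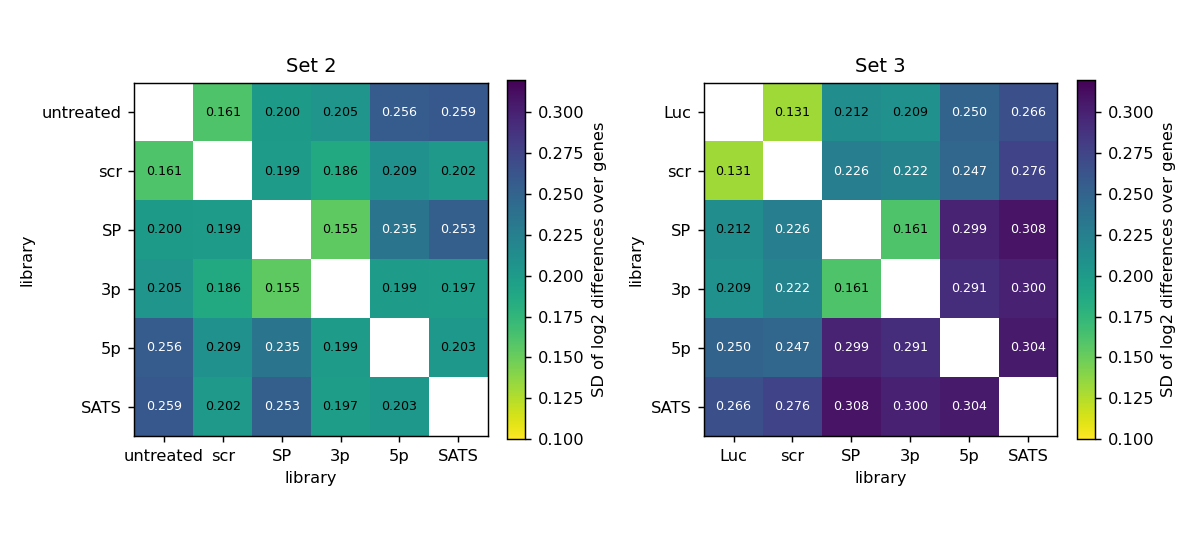
Spread of the log2 difference in normalised read count over 11026 genes for each pair of libraries, in set 2 (left) and set 3 (right). Each square is the SD for 1 pair, darker for a larger spread. Luc and scr are the closest pair of set 3 (0.131), and untreated and scr (0.161) lie next to SP and 3p (0.155) in set 2.

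Few genes passed 1.5-fold. In untreated against scr 28 genes were higher (0.254% of genes tested) and 18 lower (0.163%), 46 in all (0.417%), and 4 and 3 passed 2-fold (0.0635%). In Luc against scr 8 genes were higher (0.0726%) and 13 lower (0.118%), 21 in all (0.19%), and 1 passed 2-fold (0.00907%). The balance of directions in Luc depended on the genes kept, with 129 higher and 102 lower at a mean of at least 10, 0 and 7 at a mean of at least 200, and 10 and 11 with equal totals on genes other than *Rn45s*. Against the same scr libraries, the 4 *Stag1* siRNAs had 100 to 150 genes past 1.5-fold in set 2 and 211 to 572 in set 3. These counts share the scr library, whose own deviation enters each of them. Another measure counted the genes for which a library lay above or below all other 5 libraries of its set by at least 1.2-fold. The untreated library stood apart for 168 genes (1.52%), 95 above (0.862%) and 73 below (0.662%), and scr of the same set for 31 (0.281%), 8 above (0.0726%) and 23 below (0.209%). Luc stood apart for 43 genes (0.39%), 14 above (0.127%) and 29 below (0.263%), and scr of set 3 for 54 (0.49%), 12 above (0.109%) and 42 below (0.381%). These counts too rest largely on scr, the nearest library: without it untreated stood apart for 388 genes, 181 above and 207 below, and Luc for 132, 45 above and 87 below. Without SP, untreated stood apart for 280 genes, 134 above and 146 below. Among the *Stag1* siRNAs these counts ran from 27 (3p, set 2) to 1027 (SATS, set 3).

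**Figure D2:**
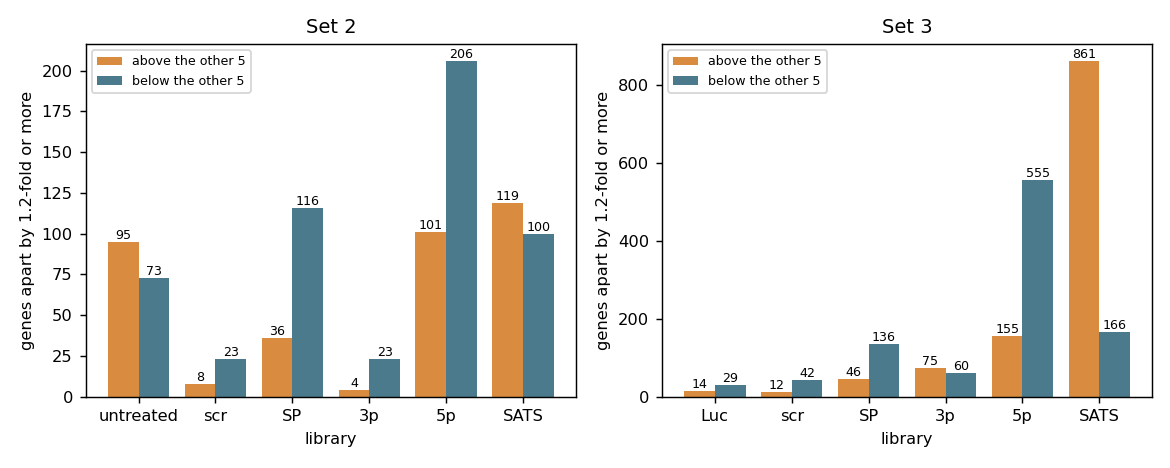
Number of genes (axes differ between the sets) for which each library lies above (orange) or below (blue) the other 5 libraries of its set by at least 1.2-fold, out of 11026 genes. Untreated has 95 and 73 genes in set 2, Luc has 14 and 29 in set 3, and SATS in set 3 has 861 above.

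Among the genes past 1.5-fold, which library of a pair held the outlying value differed between the comparisons. These genes were picked for a wide difference within the pair, which by itself pushes either library towards an outermost place. The counts therefore describe these genes and do not test which control was outlying. Of the 28 genes higher in untreated, untreated was the highest of the 6 libraries of set 2 for 26 (19.5% of all genes). For 7 of the 28, scr was the lowest. Of the 18 lower genes, untreated was the lowest for 14 (19% of all genes) and scr the highest for 5. In Luc against scr, Luc was the highest library for 2 of the 8 higher genes (7.49% of all genes), and scr was the lowest for the other 6. Of the 13 genes lower in Luc, Luc was the lowest of 6 for 6 genes (10.5% of all genes), scr was the highest for 5, and neither was outermost for 4.

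Genes of the extracellular matrix and of mesenchymal cells led the untreated side. *Col1a1*, a chain of fibrillar type I collagen (chromosome 11, 94936224 to 94953042, GRCm38), was at 4627 in the untreated library and at 2223 in scr, 2044 in SP, 1922 in 3p, 1849 in 5p and 2907 in SATS. All 5 transfected libraries thus lay below the untreated one, with SATS the nearest to it. Untreated was 2.08-fold above scr (2.01 to 2.15). *Col11a1*, a minor fibrillar collagen chain, was at 859 in untreated, 335 in scr and 315 to 586 over the 5 siRNA libraries, a log2 difference of 1.36 and the largest of this comparison. *Col8a1* was at 211 against 97.3 in scr and 68.5 to 127 over the siRNA libraries. *Robo2*, a receptor for Slit guidance cues, was at 385 against 157, with 97.2 to 256 over the siRNA libraries.

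*Col1a2*, the partner chain of *Col1a1*, was at 593 in untreated and 311 in scr, where scr was itself the lowest of the 6 libraries and the other 4 lay between 381 and 427. Other genes were highest in untreated as well. *Igfbp5*, a secreted binding protein for insulin-like growth factors, was at 232 against 123 in scr, and no siRNA library passed 149. *Dlk1*, an imprinted membrane ligand of the Notch family, was at 132 against 71.3, with the siRNA libraries held between 69.4 and 80.2. *Nrp1*, a co-receptor for semaphorins and VEGF, was at 212 against 116, and *Hmcn1*, a matrix protein, at 70.5 against 40.3. *Six5*, a homeobox gene, was at 91.5 in untreated and 45.3 in scr, but SP reached 90.5, so for this gene scr was the outlying library.

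As lists, the matrix genes were higher without exception. All 19 genes tested of a list of collagens, laminins and related matrix genes, which does not hold *Col11a1* or *Col8a1*, were higher in untreated than in scr (48.8% of all genes were), with a median log2 difference of 0.25 beside 0.00 over all genes, and for 12 of them untreated was the highest of 6 (19.5% of all genes). Of the 19, 4 passed 1.5-fold, *Col1a1*, *Col1a2*, *Col3a1* and *Col4a5*. All 8 fibroblast markers tested were higher, with a median of 0.41. The 3 that passed 1.5-fold, *Col1a1*, *Col1a2* and *Col3a1*, are also on the matrix list, so these lists are not separate evidence. *Acta2*, the smooth muscle actin, was at 5701 in untreated and 3956 in scr, but at 6951 in SATS. The whole list of 15 fibroblast markers summed to 34215 in untreated and to 24161 to 32011 in the 5 siRNA libraries. *Lum* and *Dcn*, chosen after their values were seen as markers of differentiated fibroblasts, were at no more than 1.31 and 6.29 in any library of set 2. *Postn*, *Prrx1* and *Thy1* were chosen in the same way and are not given here. Of the whole list of 15 markers, 1 was at or under 3 reads in each library of set 2. Whether the number of mesenchymal cells differed between the cultures was not tested, and in bulk RNA more cells of a type and more RNA per cell cannot be told apart. All 7 primitive endoderm genes tested were also higher than in scr (median 0.23, or 0.10 with no filter on level), of which 4 are collagen or laminin chains that the matrix list shares. Untreated was the highest of 6 for only 2 of the 7 (28.6%, beside 19.5% of all genes). The whole list of 17 endoderm genes summed to 33058 in untreated and 28884 in scr, but to 33065 in SP and 28206 in 3p.

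BMP signalling acts through SMAD proteins to switch on *Id* genes, which in serum hold back neural differentiation of mESCs. Of 13 BMP targets and *Id* genes tested, 11 were higher in untreated (median 0.20), and untreated was the highest of 6 for 9. With equal totals on genes other than *Rn45s*, 9 of 13 were higher. *Msx2*, a homeobox target of BMP, was at 139 in untreated, 86 in scr and no more than 86 in any siRNA library. *Id3* was at 1175 against 904, with the siRNA libraries between 758 and 904, and the ligand *Bmp4* was at 949 against 734 (584 to 734). The inhibitory *Smad6* was at 219 against 165. *Msx2* alone passed 1.5-fold. In Luc against scr, 11 of the same 13 genes were lower, with a median of −0.11 (−0.04 over genes with a mean of at least 200), and none passed 1.5-fold.

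**Figure D3:**
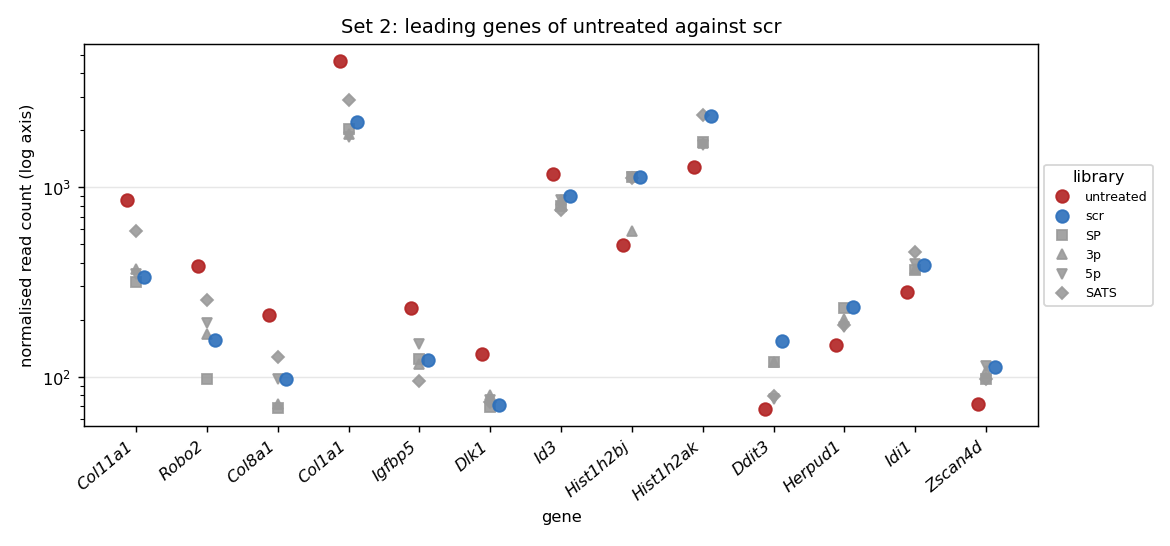
Normalised read count (log axis) in each of the 6 libraries of set 2 for genes that lead the comparison of untreated (red) with scr (blue); grey symbols are the 4 *Stag1* siRNAs. The collagen genes, *Igfbp5* and *Dlk1* are highest in untreated, while *Herpud1*, *Idi1*, *Hist1h2ak* and *Zscan4d* are lowest there. For *Hist1h2bj* the 3p library (591) is close to untreated (495).

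On the lower side of the untreated library stood genes of the endoplasmic reticulum (ER), of sterol synthesis and of histones. Unfolded protein in the ER activates ATF6, XBP1 and ATF4, which switch on chaperones and degradation factors. *Herpud1*, an ER membrane protein that takes part in the degradation of misfolded proteins, was at 147 in untreated, 234 in scr, 230 in SP, 202 in 3p, 184 in 5p and 187 in SATS, all 5 transfected libraries being above the untreated one. Its fold to scr was 0.627 (0.546 to 0.72). *Dnajb9*, an ER co-chaperone, was at 165 against 232, with the siRNA libraries between 206 and 283. *Hspa5*, the chief ER chaperone, was at 8285 against 9634, and the siRNA libraries spanned only 9285 to 9797. Of 22 genes of the unfolded protein response tested, 21 were lower in untreated than in scr (51.2% of all genes were) and 8 were the lowest of 6 (19% of all genes). Their median difference was small, −0.08, and *Herpud1* alone passed 1.5-fold. The count of lower genes was 18 after centring each library on its median. In Luc against scr of set 3, 18 of the 22 were also lower (median −0.06) and 7 were the lowest of 6 (31.8%, beside 10.5% of all genes), but 13 were lower and 3 lowest with equal totals on genes other than *Rn45s*.

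The ER stress element, to which ATF6 binds together with NF-Y, is a known feature of ER chaperone promoters, and a few copies are shown because members on both sides of the difference hold it. The motifs below were chosen after the values were seen. The element, CCAAT and CCACG with 9 bases of any kind between them, searched on both strands of RefSeq promoters of GRCm38.p6 (300 bases, from 250 before to 50 after the start site), was in 8 of 19 list members with a promoter (42.1%) and in 0.169% of 8856 genes tested. The related ER stress element II, ATTGG and CCACG with 1 base between them, was in 2 of 19 (10.5%) and in 0.0903% of genes. A match describes letters and not a bound site. The motif is in capitals, with 5 flanking bases on each side, 5′ to 3′ on the strand of the gene.
Herpud1, chr8:94386372-94386392, plus strand: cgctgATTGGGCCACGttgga
Hspa5, chr2:34772020-34772048, plus strand: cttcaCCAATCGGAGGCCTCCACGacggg
Hsp90b1, chr10:86705633-86705661, minus strand: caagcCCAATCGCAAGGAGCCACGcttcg
Dnajc3, chr14:118937822-118937850, plus strand: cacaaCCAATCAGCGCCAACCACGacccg
Pdia6, chr12:17266486-17266514, plus strand: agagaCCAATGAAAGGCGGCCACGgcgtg
Of the genes with the element, *Hsp90b1*, the ER member of the HSP90 family, was at 8408 in untreated and 9139 in scr, and *Dnajc3*, a co-chaperone of *Hspa5*, at 711 and 827. *Pdia6*, a protein disulfide isomerase, holds the element as well but was at 4079 in untreated and 3819 in scr, so it was the 1 gene of the list that was not lower.

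Cholesterol is made through the mevalonate pathway, whose genes are induced together by SREBP2 when ER sterol falls. Of 27 genes of sterol synthesis and uptake tested, 24 were lower in untreated than in scr, with a median log2 difference of −0.12, and for 19 of them untreated was the lowest of 6 libraries, where 19% of all genes were. None passed 1.5-fold. *Idi1*, the isomerase that makes dimethylallyl pyrophosphate, was at 279 in untreated and between 366 and 454 in the 5 siRNA libraries (389 in scr). *Msmo1*, a sterol demethylase, was at 512 against 647 in scr (647 to 892), and *Sc5d*, a late sterol desaturase, at 262 against 333 (304 to 353). *Hmgcs1*, the HMG-CoA synthase at the head of the pathway, and *Insig1*, the ER anchor of the SREBP complex, both chosen after their values were seen, were at 2423 against 2855 (2855 to 3452) and at 542 against 667 (661 to 895). *Tm7sf2*, a sterol reductase, went the other way, at 76.2 against 60. The sterol regulatory element TCACNCCAC, searched on both strands, was in the promoter of *Hmgcs1* alone among 18 list members with a promoter (5.56%), beside 1.39% of genes, and is shown as the 1 copy found.
Hmgcs1, chr13:119690209-119690227, plus strand: ccgtcTCACCCCACttccc

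The same list was lower in Luc than in scr of set 3, a pair that shares no library with the first. There 24 of 27 were lower (55.2% of all genes were), the median was −0.08, and Luc was the lowest of 6 for 18 genes (10.5% of all genes). With equal totals on genes other than *Rn45s*, the count of lower genes was 20, and Luc was the lowest for 15. *Sqle*, the squalene epoxidase, was at 1591 against 1843 (1691 to 2067). *Idi1*, which was farthest down in untreated, was at 612 in Luc and 614 in scr. Thus the scr libraries were on the higher side of this pathway in both comparisons, while the members with the widest difference were not the same. The SP libraries of both sets were higher still for *Hmgcs1*, at 3452 and 4846, beside 2855 and 3706 in scr.

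Histone genes of the replication-dependent class, whose mRNAs end in a stem-loop and lack a poly(A) tail, were lower in untreated for 49 of 56 genes tested (median −0.12), and untreated was the lowest of the 6 libraries for 46 of the 56 (82.1%, beside 19% of all genes). *Hist1h2ak* was at 1280 in untreated, 2390 in scr, 2397 in SATS and 1680 to 1727 in the other siRNA libraries. *Hist1h2bj* was at 495 against 1135, the largest log2 difference on this side (−1.20), but the 3p library was also low, at 591, and the other 3 were at 1126 to 1141. Histone genes have near-identical copies, so reads may be split among them and single values are uncertain. In Luc against scr 50 of 56 were lower too (median −0.14), and Luc was the lowest library for 9 (16.1%, beside 10.5% of all genes). The octamer ATTTGCAT, a known element of H2B promoters, was in 13 of 51 histone promoters (25.5%) and in 1.75% of genes. The 13 hold H2A as well as H2B genes and are not all separate sites. *Hist1h2ae* and *Hist1h2bg* share a single copy, and so do *Hist1h2ah* and *Hist1h2bk*.

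Further genes lower in untreated include single genes of stress and of early-embryo programmes. *Ddit3* (CHOP), a transcription factor of the integrated stress response, was at 67.9 in untreated and 155 in scr. Here scr was the highest of the 6 libraries, SP and 3p were both at 120 and 5p and SATS were at 76.8 and 79.7, so the fold of 0.438 rests on scr as much as on untreated. The list of 29 integrated stress response genes as a whole was not lower, with 19 of 29 higher in untreated (median 0.06) and *Ddit3* the only one past 1.5-fold. Untreated was the highest of 6 for 14 of the 29 (48.3%, beside 19.5% of all genes) and the lowest for 4. *Bhlhe41*, a circadian repressor, was at 28.5 in untreated and 64.6 in scr, with 5p at 32.9. *Zscan4d*, a gene of the 2C-like state, was at 72.2 against 113 and was lowest of 6 in untreated (97.7 to 114 in the siRNA libraries). In set 3 scr was instead the lowest of 6 for this gene, at 13.9 beside 19.2 in Luc and at most 30.1 in the others. *Zscan4d* was the 1 gene of 13 on that list above the minimum level, through its values in set 2. *Slc35f1*, *Mal2*, *Plbd1*, *Neto2* and *Hist1h4n* had the widest gaps below the siRNA libraries, and *Mal2*, a membrane trafficking protein, was at 39.8 in untreated and at 58.4 to 69.5 in the other 5.

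*Pcdh8*, *Syt4*, *Tmem144*, *Zfp943* and *Il1rap* complete the 10 lowest differences, from −0.66 to −0.79. *Tmem144* was at 49.9 in untreated and 87.2 in scr, but at 44.1 in SP, and *Il1rap* was at 34.6 and 55.4, with SP at 31.6. Those values were thus within the range of the siRNA libraries. Metal and iron genes were lower in untreated for 9 of 9 tested (median −0.16), with *Mt1*, a metallothionein that binds zinc and copper, at 1031 against 1253, and *Fth1*, the heavy chain of ferritin, at 2821 against 3329 (3329 to 4419 over the siRNA libraries). None of the 9 passed 1.5-fold. In Luc the same list was divided, 5 higher and 4 lower.

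Interferon genes, which double-stranded RNA can induce, had no common direction in untreated against scr. Of 44 genes on the list 40 were in the table and 16 were above the minimum, of which 8 were higher and 8 lower in untreated (median 0.00), and 8 and 8 again in Luc (median 0.00). None passed 1.5-fold in either comparison. Untreated was nevertheless the lowest of 6 for 5 of the 16 (31.2%, beside 19% of all genes), and *Cxcl10*, an interferon-inducible chemokine, stood apart below, at 101 in untreated, 122 in scr and 136 to 178 in the *Stag1* siRNA libraries. *Ifit1*, a direct interferon target, was at 0 in untreated, 0.419 (1 read) in scr of set 2, 3.85 in Luc and 3.97 in scr of set 3, and *Mx1* was at no more than 0.876 in these 4 libraries, under 3 reads. *Isg15* was at 15.3 in untreated and 10.1 in scr, and at 5.56 in Luc and 4.36 in scr. More members under the minimum level were chosen, like *Ifit1*, *Mx1* and *Isg15*, after their values were seen. *Ifit2* and *Oasl2* were lowest of 6 in untreated, at 39.8 (49.1 to 68.7 in the 5 siRNA libraries) and 33.7 (41.5 to 56.3). So were *Ifih1* at 19.3 (21.8 to 29.6), *Psmb9* at 13.1 (17.2 to 20.1), *Zbp1* at 2.63 (3.74 to 6.7) and *Ifit1*. *Cmpk2* and *Dhx58* were instead highest of 6 in untreated, at 17.1 (10.5 to 13.8) and 18.8 (18.5 in scr), as was *Mx1* at under 3 reads. Against scr the members under the minimum level thus had no common direction either, but more were lowest of 6 in untreated than highest. Summed over the 40 genes, the level was 7730 in untreated and 7591 in scr, with 8090 to 8355 in the 4 *Stag1* siRNA libraries of set 2. Among the receptors and binding proteins of double-stranded RNA, 7 of 9 tested were lower in untreated (median −0.05) and 4 were the lowest of 6 (44.4%), with *Eif2ak2*, the kinase PKR, at 281 against 312. Naive pluripotency genes were higher in untreated than in scr for 13 of 17 (median 0.07), untreated being the highest of 6 for 11, and *Klf4* was at 1630 against 1340 (1124 to 1340). In Luc 14 of the same 17 were lower (median −0.09), but Luc was the lowest of 6 for 0 of them. No naive gene passed 1.5-fold in either comparison. Formative and primed genes were higher in untreated too, for 14 of 17 (median 0.1). For 4 of these 17 untreated was the highest of 6 (23.5%, beside 19.5% of all genes).

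In the Luc library a few transcripts stood far below all other libraries. *Tmem50a*, which codes for a small transmembrane protein (chromosome 4, 134897849 to 134915024, GRCm38), was at 158 in Luc, and at 362 in scr, 388 in SP, 373 in 3p, 442 in 5p and 400 in SATS. In set 2 it was at 394 to 424 in all 6 libraries, so that Luc was the lowest of 12, at 0.437 of scr (0.386 to 0.494), a log2 difference of −1.19. *Ndufaf7*, an arginine methyltransferase needed to assemble respiratory complex I (chromosome 17, 78937136 to 78948052), was at 124 in Luc and at 230 in scr, 231 in SP, 214 in 3p, 208 in 5p and 211 in SATS, a fold of 0.537 (0.465 to 0.62). Its set 2 values were 166 to 189. *Ppil1*, a spliceosomal peptidyl-prolyl isomerase (chromosome 17, 29250803 to 29264186), was at 689 against 1091 (950 to 1091 in the other 5), and *Rpl24*, a protein of the large ribosomal subunit (chromosome 16, 55966275 to 55971435), at 2787 against 4017 (3913 to 4485).

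*Rpl24* differed from the rest of its class. Of 77 cytosolic ribosomal protein genes tested, none but *Rpl24* was more than 1.2-fold below the other 5 libraries in Luc. The list's median was −0.01 and its lowest difference, −0.53, was that of *Rpl24*. Nevertheless 30 of the 77 were the lowest of 6 in Luc (39.0%, beside 10.5% of all genes), or 20 after centring each library on its median. *Glrx*, a glutaredoxin, was at 122 against 202 (178 to 331). *Fundc2* and *Kat2b*, chosen after their values were seen as the next in order of the gap, were at 345 against 466 (466 to 773) and at 727 against 971 (971 to 1091). In set 2 the untreated and scr libraries had 351 and 350 for *Fundc2*, and 227 and 222 for *Glrx*. On the higher side the gaps were narrow. *Itgb4*, the integrin of hemidesmosomes, was at 319 in Luc, 223 in scr and 208 to 248 over the other 5, and *Mdm2*, the ubiquitin ligase of p53 and itself a p53 target, at 2645 against 2086 (1924 to 2136). *Iba57*, *Mroh6* and *Zfp661* followed with gaps of 0.31 to 0.32.

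**Figure D4:**
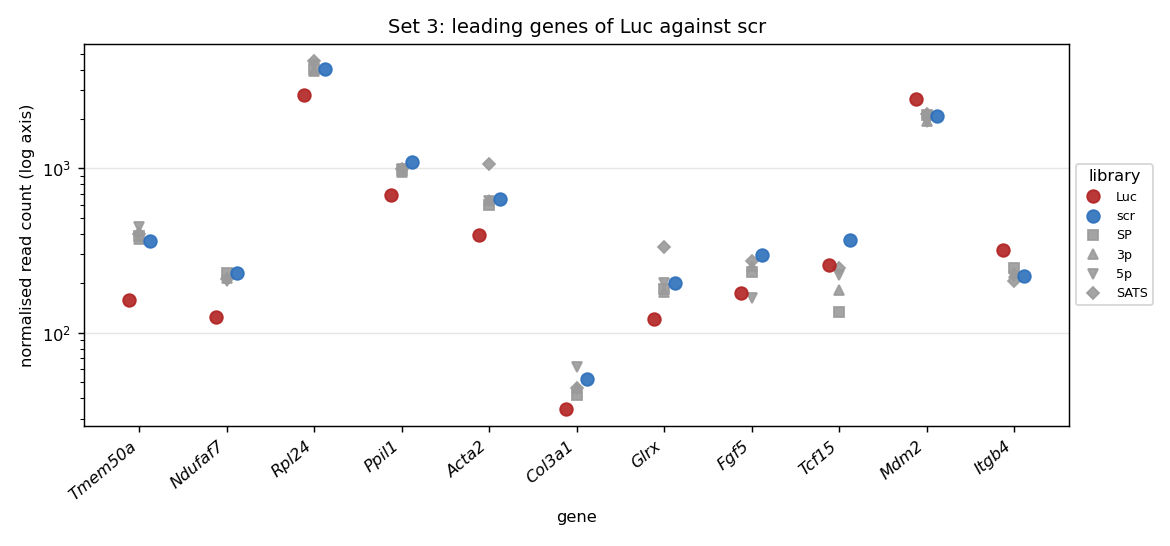
Normalised read count (log axis) in each of the 6 libraries of set 3 for genes that lead the comparison of Luc (red) with scr (blue); grey symbols are the 4 *Stag1* siRNAs. *Tmem50a*, *Ndufaf7*, *Rpl24*, *Ppil1* and *Acta2* are lowest in Luc, and *Tcf15* is highest in scr.

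Mesenchymal and contractile genes, higher in the untreated library of set 2, were lower in Luc. Of 8 fibroblast markers tested 7 were lower (median −0.48, or −0.34 to −0.49 over the scalings and filters tried), and 3 passed 1.5-fold. *Acta2* was at 392 normalised reads in Luc, 649 in scr and 603 to 1067 over the other 5 libraries, and Luc was the lowest. *Vim*, the intermediate filament of mesenchymal cells, was at 2145 against 3336 (2342 to 3336). *Col1a1* was at 242 in Luc and 367 in scr, where scr was the highest of 6 and 5p was down at 155. *Actc1*, the cardiac actin, was at 88.5 against 161, yet SP was at 86.7, and *Synpo2*, an actin-bundling protein, was at 39.4 against 63.9, with 5p at 30.5. The 15 fibroblast markers summed to 6999 in Luc, 9132 in scr and 6901 to 10020 over the other 5, well under the 24161 to 34215 of set 2. Their part in the differences of other genes was not tested.

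*Fgf5*, a growth factor that marks exit from naive pluripotency, was at 175 in Luc and 298 in scr, with 162 in 5p and 235 to 274 in the other libraries, so Luc lay at the low end of a wide range. All 17 formative and primed genes tested were lower in Luc than in scr (median −0.17), and 15 of 17 with equal totals on genes other than *Rn45s*, but Luc was the lowest of 6 for 1 of them. *Pou3f1* was at 1093 against 1331, and *Foxd3* at 434 against 548. For *Foxd3* scr was the highest of 6 libraries and Luc lay within the *Stag1* siRNA libraries (336 to 464). Of 29 integrated stress response genes 22 were lower in Luc (median −0.14), with *Vldlr* at 53.5 against 75.4 and *Ddit3* going the other way, at 65.4 against 49.6. Luc was the lowest of 6 for only 3 of the 29 (10.3%, beside 10.5% of all genes). Of 28 p53 targets 22 were higher in Luc (44.8% of all genes were), with a median of 0.09, none past 1.5-fold. Luc was the highest of 6 for 3 of the 28 (10.7%, beside 7.49% of all genes). *Btg2*, an antiproliferative p53 target, was at 1179 in Luc and 826 in scr, but at 1613 in SP, and *Mdm2* was the 1 target for which Luc stood apart. *Cdkn1a*, the p53 target that blocks the cell cycle, was at 709 and 718.

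Small noncoding RNAs and rRNA had a median of −0.18 in Luc (−0.09 with equal totals on the genes other than *Rn45s*), with 13 of 21 lower (61.9%, beside 55.2% of all genes). *Rn45s*, the rRNA precursor left after depletion, took 17.8% of the reads in Luc and 21.9% in scr, and in set 2 it took 19.2% in untreated and 16.4% in scr. *Terc*, the telomerase RNA, was at 260 against 352, *Snord17* at 257 against 330, and *Rmrp*, chosen after its values were seen, at 24617 against 30188. *Rn45s* was lower in Luc together with these RNAs, and its part in their difference was not tested.

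Some genes set the scr libraries themselves apart. In set 3 *Tcf15*, a bHLH transcription factor, was at 365 in scr, 257 in Luc and 133 to 247 in the *Stag1* siRNA libraries. *Unc13a*, *Cdh4*, *Ramp3* and *E130012A19Rik* were also highest in scr, with gaps of 0.32 to 0.39 on the log2 scale. On the low side *Cxcl11*, an interferon-inducible chemokine, was at 26.2 in scr, 41.5 in Luc and 43 to 89.6 in the others, *Zscan4a* at 13.1 against 22.7 in Luc, *Serinc2* at 24.2 against 41.1 and *Commd3* at 190 against 261. These 3 low genes, *Cxcl11*, *Zscan4a* and *Serinc2*, were among the 8 that passed 1.5-fold in Luc against scr, so the luciferase library was not the outlying one for them. *Pvrl4* was at 54.7 in Luc, the highest of 6 by a small margin (SATS had 50.9), and at 32.5 in scr, with 5p below it at 27.3. *Ltb4r2* was at 60.3 in Luc, within the *Stag1* siRNA libraries (41.2 to 72), and at 36.9 in scr, the lowest of 6. *Hdac9*, *Ptprv*, *8430419L09Rik* and *Gna15* were the other higher genes by this order, with *Ptprv* at 205 against 132. In set 2 scr was highest for *Ankrd33b* (186, with 93.5 to 133 in the other 5), *Ddit3*, *Rgs16*, *0610030E20Rik* and *Pcdh8*. It was lowest for *Kis2*, *2200002D01Rik*, *Shfm1*, *Hist1h2bn* and *Sdhaf1*, of which *Shfm1*, a subunit of the proteasome lid, was at 475 in scr and 618 to 808 in the other 5.

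The comparisons share no library, so their calls can be set side by side. Of the 46 genes past 1.5-fold in untreated against scr and the 21 in Luc against scr, 2 were shared, 4.35% of the first and 9.52% of the second, and they went in opposite directions. *Col1a1* was higher in untreated and lower in Luc, and *Hdac9*, a class IIa histone deacetylase, was lower in untreated (18.4 against 28.1) and higher in Luc (80.8 against 51.6). Across the 11026 genes the differences correlated at −0.14 (Pearson's r, a description over genes, which are not replicates). Of the 41 lists with at least 5 genes tested, 7 had a median of at least 0.1 from 0 in untreated against scr, 4 higher and 3 lower, and 7 in Luc against scr, all lower, or 2 higher and 4 lower with equal totals on genes other than *Rn45s*. Histones were lower than scr by this measure in both, and sterol genes in untreated only (−0.12, with −0.08 in Luc). Fibroblast, collagen and laminin, and BMP genes were higher in untreated and lower in Luc.

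**Figure D5:**
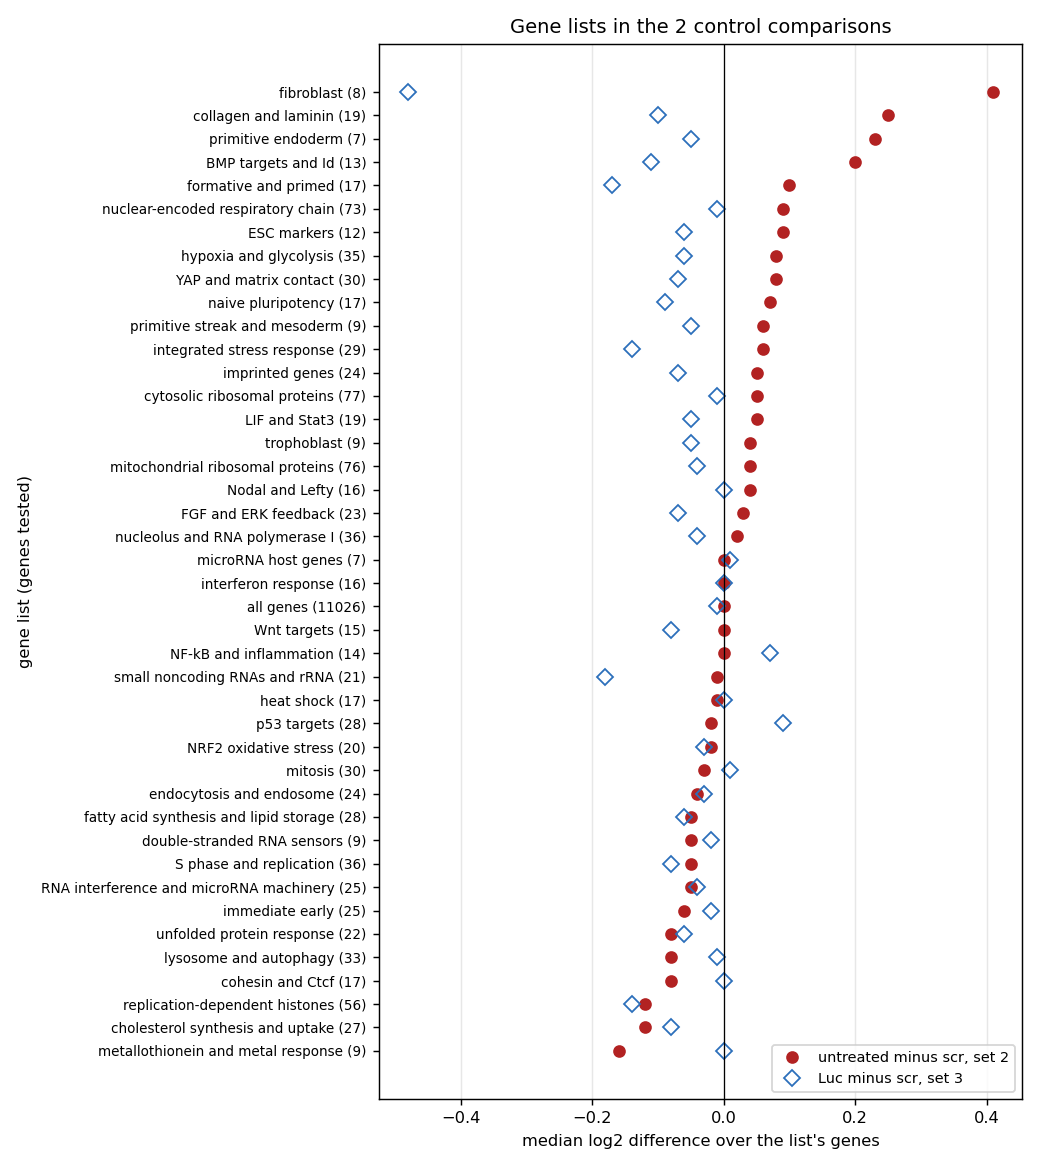
Median log2 difference of each gene list with at least 5 genes tested (number in brackets), for untreated minus scr in set 2 (filled circles) and Luc minus scr in set 3 (open diamonds), with all genes as a row of their own. Fibroblast genes lie at 0.41 and −0.48, and histone and sterol genes lie below 0 in both.

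With Luc and SATS set 3 held a pair of esiRNA libraries beside 4 of synthetic siRNA (scr, SP, 3p and 5p). Both esiRNA libraries lay above all 4 synthetic ones by at least 1.2-fold for 6 genes (0.0544%) and below for 4 (0.0363%). The 6 were *Ikbke*, *Gm13212*, *Lamb3*, *Mpv17l*, *Dusp19* and *Ociad2*, and the 4 were *Hmcn1*, *Eml1*, *Fam219a* and *Vat1l*, all named here after their values were seen. *Ikbke*, a kinase of the interferon and NF-κB pathways, was at 45.3 in Luc and 49.8 in SATS, and at 22.8 to 34.1 in the synthetic siRNA libraries. In set 2, where SATS was the only esiRNA, it lay above the 4 synthetic libraries for 2 of the 6 genes and below them for 2 of the 4, beside 25.4% and 23.0% of all genes, and by 1.2-fold for none. None of these 10 genes therefore separated the esiRNAs from the synthetic siRNAs in both sets by this measure.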

How the data were processed

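RNA-seq of 12 libraries of sets 2 and 3 was used, 1 per condition and set. According to the methods, the authors used HISAT2 (genome mm10) and featureCounts, then scaled the gene counts of all serum libraries together by DESeq2 (1.14.1) size factors and dropped the lowest genes. The deposited values are thus a normalised signal. The strand setting is stated for paired-end libraries only, so overlapping and antisense genes are uncertain. Dividing by the value of 1 read gave whole reads for 100% of 223908 values (tolerance 0.001). Genes with a mean of at least 50 were kept, and a difference was called at 1.5-fold on log2(value + 1) with no test. Genes named were the 10 largest differences in each direction and the 5 widest gaps of untreated, Luc and scr, *Stag1*, *Stag2* and members of 43 gene lists with the largest difference. Members and lists were chosen with earlier results of these data known. Genes matched GENCODE vM21 (GRCm38, the mm10 build). As alternatives, the 12 libraries were fitted with limma 3.58.1 and edgeR 4.0.16 in R 4.3.3, both tested on simulated data. Deviations from group means correlated at 0.86 (0.81 to 0.93) between same-numbered libraries over 10 pairs of groups, and the set numbers, taken from the labels, were treated as pairing. Python 3.11.15 was used. Nothing in the labels says that libraries of sets 2 and 3 came from separate cultures beyond their set number. *Stag2* was at 1719 and 1811 in untreated and scr, and at 3092 and 2895 in Luc and scr. Set 1 and the 2i libraries were not analysed here.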

Additional observations from a re-analysis of the deposited data

How the results depend on the processing

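Counts past a fold depended on the level of the genes kept. For untreated against scr, 46 genes passed 1.5-fold, beside 267 with a mean of at least 10, 14 with at least 200 and 1783 with no filter, and 7 passed 2-fold. For Luc against scr, 21 passed, beside 231, 7 and 1865, with 11 at a pseudocount of 10 and 1 past 2-fold. Set against the median of the other 5 libraries, chosen after seeing the data, the counts were 91 and 33. Without the fibroblast and matrix lists, also chosen after seeing the data, they were 42 and 18. The untreated library stood apart for 168 genes, beside 405, 73 and 1098 under these filters and 8 at a gap of 1.5-fold, and for Luc the counts were 43, 177, 17, 883 and 3. For both esiRNAs against the synthetic siRNAs they were 10, 49, 0, 211 and 0, and 6 at a pseudocount of 10. Leaving out 1 library gave 193 to 388 genes for untreated (388 without scr, 280 without SP), 55 to 132 for Luc (132 without scr) and 19 to 97 for the esiRNAs (97 without scr, 19 without SP, 25 without 3p, 29 without 5p). Fewer libraries or more low genes make such gaps more frequent by construction. Of 574 list medians recomputed, 556 moved by at most 0.05 and 18 by more, and no median of at least 0.1 from 0 changed sign. The number of lists with a median of at least 0.1 from 0 stayed within 1.5 times 7 in both comparisons, but in Luc it turned from 0 higher and 7 lower to 2 higher and 4 lower with equal totals on genes other than *Rn45s*. Without a filter, 966 genes were higher and 899 lower in Luc.

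With the set number as a replicate block, all 12 libraries were fitted together, the lone untreated and Luc libraries being assumed to vary like the other groups. At an adjusted p of 0.05 (Benjamini-Hochberg), limma called 0 genes for untreated (459 at an unadjusted p under 0.05) and edgeR (quasi-likelihood, on whole reads recovered from the values) also called 0 (438). For Luc each called 1 gene, *Tmem50a* (158 and 162 unadjusted). Without the block, limma called 0 and 0 (49 and 27 unadjusted).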
